A study of Mus musculus with 32 samples.

Results

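The subject is the uncapped RNA of the mouse kidney, set gene by gene against that of 4 other organs. Degradome sequencing reads short tags at the 5′ ends of poly(A) RNA that carries no cap, so for transcripts made with a cap a value counts ends of molecules that lost it or were cut, and is not the level of the intact transcript. The authors deposited 1 table per organ with a mean over all its libraries, and each mean was divided here by the sum of its table and given in parts per 1000000 of that sum (ppm), called the share. Of 55289 named genes, 17758 had a mean of at least 100 in at least 1 of the 5 tables and were compared.

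The series compares male mice aged 4 months that were wild type (WT) or deficient in Ftsj1 (Ftsj1_DF), an X-linked gene for a tRNA methyltransferase, with no treatment. How the deficiency was made and the strain are not given in the sources used here. Whole kidney, brain, heart and liver came from the same 6 mice, 3 Ftsj1_DF and 3 WT, and whole spleen from 8 other mice, 4 of each genotype, which gave 32 libraries. The mice belonged to sets of brothers, the labels give all libraries the same batch, and both genotypes are pooled in every mean used below. Each organ thus has 1 pooled value per gene, with no value per library, so the organs were compared without a replicate test and without an SD.

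The kidney is built of filtering glomeruli and long tubules. Podocytes hold the filter, and the proximal tubule takes back most of the filtered glucose, amino acids, phosphate and protein and secretes organic anions and cations. The thick ascending limb and the distal convoluted tubule then reclaim salt, while principal and intercalated cells of the collecting duct set the final water, sodium and acid content of urine. The proximal tubule also makes glucose and shares many enzymes with hepatocytes.

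In the table named for brain the leading transcript was Alb, serum albumin of hepatocytes, at 22.3% of its sum, and the list of hepatocyte markers summed to 27.3%. In the table named for liver the leading transcript was Cpe, carboxypeptidase E, which trims peptide hormones and neuropeptides, and neuronal markers such as Rbfox3 had their highest share there. These tables are called brain-named and liver-named below; the median and the maximum of the other 4 tables are the same whichever way the names are read. The spleen table was led by Pnlip, a pancreatic lipase, and pancreatic acinar markers made up 15.5% of it against 0.225% of the kidney table. In kidney 1 of these markers, Spink1, held 1327 of the 2250 ppm of the list, and its share there was above that in spleen.

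The kidney label held against its markers. Umod, the marker of the thick ascending limb that encodes uromodulin, had a share of 550.5 ppm in the kidney table. It had 0.42 in heart, 1.36 in spleen, 0.73 in the brain-named and 1.21 in the liver-named table. The kidney value exceeded that of the highest other table by 8.21 on the log2 scale, with an approximate error of 0.37. This error combines, for both tables, 0.5 times the standard error that the authors deposited for the log2 genotype difference. It approximates the standard error of the mean over the libraries of each table and carries no p. Both tables are treated as independent, although kidney, brain, heart and liver came from the same mice.

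Kidney RNA was spread over more genes than in 3 of the other tables. It took 612 genes to reach 50% of the kidney sum, against 62 in the brain-named, 98 in the spleen and 118 in the heart table, and 763 in the liver-named table. The 10 leading genes made up 5.75% of the kidney sum, 4.86% of the liver-named and between 21.1% and 36.9% of the others. Where a few genes fill a table, every other gene has a smaller share of it. The median log2 ratio of kidney over the median of the other 4 tables was 0.47 over all compared genes, and 70.7% of them lay above 0. The cause of this median was not tested. Ratios below are to be read beside that median. Per gene, shares were not divided by transcript length, so they are compared between tables and not between genes.

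A gene is called raised where its kidney share, with 0.5 ppm added, was at least 8-fold the median of the other 4 tables, and lowered at or below an eighth of it. It is called dominant where it was at least 8-fold the highest of the other 4. Of the 17758 compared genes 826 were raised, 4.65%, 44 were lowered, 0.248%, and 252 were dominant, 1.42%. Against the mean of the other 4 tables in place of their median, which 1 high organ can lift, 483 genes were raised and 896 lowered. All 252 dominant genes were also among the raised genes. The raised and dominant calls were made on these same shares, so higher sums in kidney largely follow from the choice of genes. The raised genes held 20.1% of the kidney sum, against 7.91% of the brain-named, 2.24% of the liver-named, 1.46% of the heart and 0.811% of the spleen sum. The dominant genes alone held 8.45% of the kidney sum and between 0.0877% and 0.18% of each other table. Their kidney shares ran from 4.5 ppm to 6141 for Akr1c21, with a median of 68.2. The calls sit on a continuous scale: Slc2a2 lay just inside the raised call at 3.003 and Dcxr just outside at 2.999 on the log2 scale. Dusp5 at -3.0035 was just lowered and Homer2 at -2.9968 was not, while Sprr2a3 at 3.0055 over the highest other table was just dominant and Marveld3 at 2.9964 was not.

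**Figure D1:**
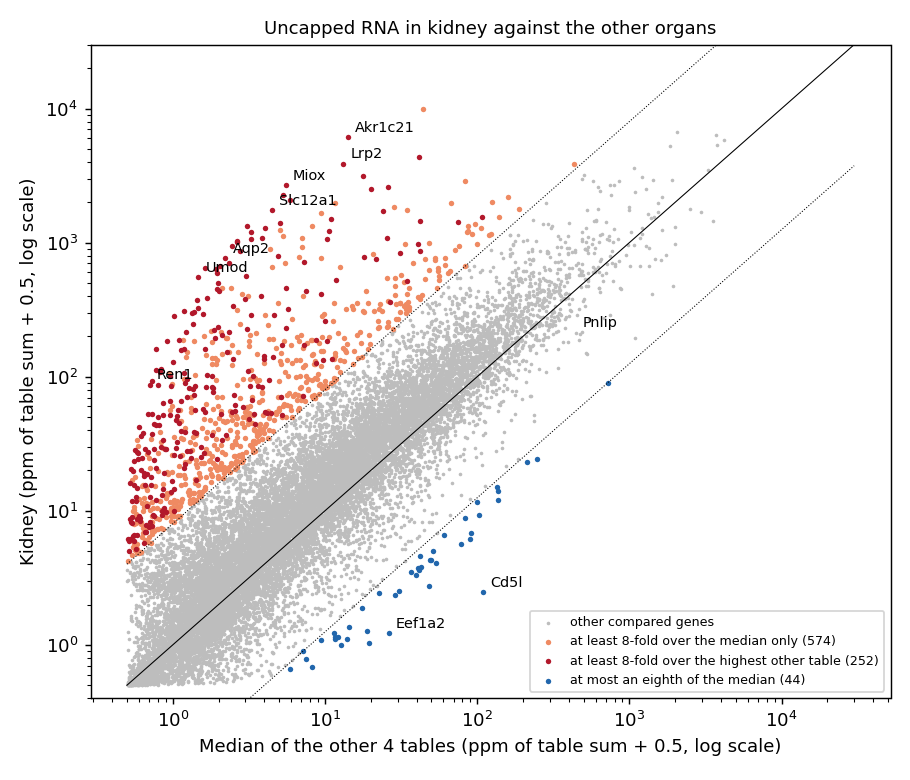
Kidney share against the median share of the other 4 tables for the 17758 compared genes, each with 0.5 ppm added, on log axes; the solid line marks equality and the dotted lines 8-fold differences. The 252 genes that were at least 8-fold over the highest other table (dark red) reach shares of 6141 ppm, and the 44 lowered genes (blue) are fewer and reach a log2 ratio of -5.47.

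The 15 highest ratios among genes with a descriptive symbol were led by genes of the tubule. The highest was Miox, myo-inositol oxygenase, a proximal tubule enzyme, with a share of 2676 ppm in kidney and 2.11 in heart, 6.42 in spleen, 3.66 in the brain-named and 6.37 in the liver-named table, a log2 ratio of 8.92. Hao2, a peroxisomal hydroxyacid oxidase, stood at 1340.0 ppm in kidney and at 3.32 or less elsewhere, with a ratio of 8.77. Akr1c21, a hydroxysteroid dehydrogenase, stood at 6141 ppm in kidney and at 5.69 to 17.1 in the others, with a ratio of 8.76. In each of these genes the kidney value was the only high one of the 5.

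The rest of the 15 covered several segments. Guca2b, the peptide uroguanylin, had 2253 ppm in kidney and at most 7.97 elsewhere, and Mep1a, a brush border metalloprotease, 651.4 and at most 1.44. Slc22a6 (OAT1), the basolateral organic anion transporter of the proximal tubule, had 944.8 ppm in kidney and a second level of 28.6 in the liver-named table, with 2.35 or less in the remaining tables. Slc6a18, a proximal amino acid transporter, had 1023 ppm in kidney and 2.76 at most elsewhere. Kap, the androgen-regulated kidney protein, had 1003 and 3.11 at most. Mfsd4b5 with 1206 and Dnase1 with 2095 ppm in kidney are a sugar transporter homologue and a secreted nuclease, and Tmem52b, a membrane protein, had 637.6. The water channel Aqp2 and the salt transporters Slc12a1 and Slc12a3 complete the set and are described with their segments. The ratios of the 15 ran from 8.36 to 8.92, and their approximate errors against the highest other table from 0.24 to 0.50. Neighbours in this order therefore differed by less than their errors.

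**Figure D2:**
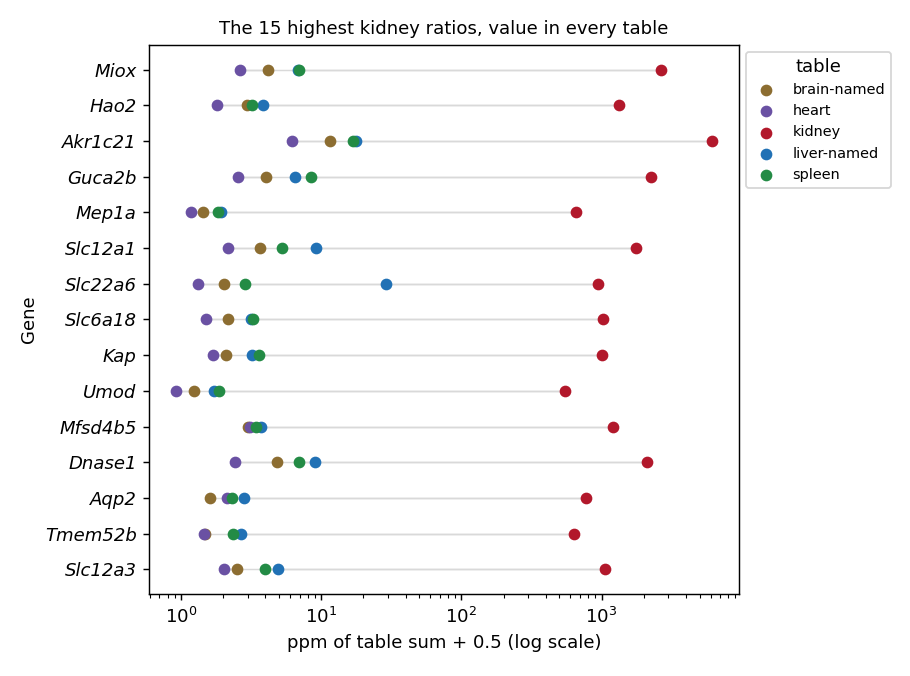
Share of the 15 genes with the highest kidney ratios in each of the 5 tables, in ppm of the table sum with 0.5 added, on a log axis; each point is 1 table. The kidney points lie between 550.5 (Umod) and 6141 (Akr1c21) ppm before the addition, and Slc22a6 in the liver-named table, at 28.6, is the highest point of any other organ.

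To show the sequence in front of such genes, the 250 bases before the annotated start were taken from RefSeq promoters of build GRCm38.p6, and the core of the TATA box was searched there. The TATA box is a core promoter element that binds the TATA-binding protein and helps place the start of transcription. The letters searched were TATAAA, or TTTATA where the word lies on the other strand. Of the 15 genes 14 had a window and 4 of these held the word: Miox, Kap, Dnase1 and Slc12a3. Their windows are printed 5′ to 3′ in the direction of the gene, with the word in capitals. Kap lies on the minus strand (chr6:133853668-133853917) and Miox (chr15:89334223-89334472), Dnase1 (chr16:4036786-4037035) and Slc12a3 (chr8:94328958-94329207) on the plus strand.
Miox: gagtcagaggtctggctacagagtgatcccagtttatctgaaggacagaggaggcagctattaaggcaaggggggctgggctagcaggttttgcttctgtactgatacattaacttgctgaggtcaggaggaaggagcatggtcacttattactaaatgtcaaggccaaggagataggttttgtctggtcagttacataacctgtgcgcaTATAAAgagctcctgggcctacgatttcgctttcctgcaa
Kap: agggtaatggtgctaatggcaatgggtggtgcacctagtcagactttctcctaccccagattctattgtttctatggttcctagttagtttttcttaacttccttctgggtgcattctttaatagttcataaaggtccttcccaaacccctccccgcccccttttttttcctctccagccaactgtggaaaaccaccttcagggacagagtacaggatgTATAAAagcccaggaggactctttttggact
Dnase1: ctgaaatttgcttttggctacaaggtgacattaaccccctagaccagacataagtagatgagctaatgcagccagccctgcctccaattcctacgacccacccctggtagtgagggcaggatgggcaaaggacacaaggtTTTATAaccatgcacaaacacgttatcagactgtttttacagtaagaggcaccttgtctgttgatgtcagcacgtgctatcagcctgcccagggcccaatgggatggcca
Slc12a3: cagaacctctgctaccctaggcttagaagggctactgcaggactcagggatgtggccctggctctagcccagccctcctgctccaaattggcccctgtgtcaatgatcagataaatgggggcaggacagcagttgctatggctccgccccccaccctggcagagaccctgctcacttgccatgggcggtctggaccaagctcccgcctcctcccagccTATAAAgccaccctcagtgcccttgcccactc
The word begins 40 bases before the start in Miox, 31 in Kap and 32 in Slc12a3, on the strand of the gene, and 110 in Dnase1, on the other strand. Of the 12293 compared genes with a window, 956 or 7.78% held the word on either strand, of the 601 raised genes with a window 72 or 12%, and of the 190 dominant genes 21 or 11.1%. In all 32851 windows of the table the share was 12.4%. Within the last 50 bases before the start and on the strand of the gene, 279 compared genes held it, 2.27%, and 27 raised genes, 4.49%. The windows of raised genes had a lower median GC content, 55.2%, than those of compared genes, 58.8%, and windows of lower GC content hold this AT-rich word more often. Within GC content under 45% the word was in 22 of 101 raised and 304 of 1220 compared genes, from 45% to under 55% in 35 of 198 and 372 of 3252, and from 55% upward in 15 of 302 and 280 of 7821. A match describes letters in a window and says nothing of binding.

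Proximal tubule transport genes were raised almost throughout and mostly dominant. Of 42 genes 38 were compared, and 34 of them were raised and 27 dominant, against 4.65% and 1.42% of all compared genes, with a median log2 ratio of 6.39 against 0.47. In total the list had a share of 1.95% in the kidney table and at most 0.168% in another, the brain-named. Lrp2, megalin, the endocytic receptor for filtered protein, led with 3893 ppm in kidney and 12.5 in heart, 13.2 in spleen, 7.75 in the brain-named and 12.8 in the liver-named table, a ratio of 8.21. Slc13a3, the basolateral dicarboxylate transporter, followed with 2589 ppm in kidney and 157.0 in the liver-named table, and 35.8 or less in the remaining tables. Slc27a2, a fatty acid transporter and acyl-CoA synthetase of liver and kidney, had 1668 ppm in kidney and 770.8 in the brain-named table, so it was raised at 7.48 but only 1.11 above the highest other table. The lowest ratio of the list was that of Cubn, cubilin, the partner of megalin, with 4.29 ppm in kidney, 4.66 in the liver-named and between 1.03 and 2.27 in the remaining tables. Its ratio of 0.86 did not reach the call, unlike that of Lrp2.

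Genes for reabsorption of glucose and phosphate included dominant ones, but not all were dominant. Slc2a2, a glucose transporter of the same list, had 5.28 ppm in kidney and 18.95 in the brain-named table. Slc34a1, the main renal phosphate carrier, had 671.0 ppm in kidney and 1.98 or less elsewhere, and Slc5a2 (SGLT2), the early proximal glucose transporter, 284.4 and at most 0.82. Of the family Slc22 of organic ion transporters, 14 of 22 compared genes were raised and 8 dominant, and over all solute carriers (Slc) 72 of 335 compared genes were raised, 21.5%, 3 lowered and 40 dominant. Of the 42 transport genes 4 were not compared: Slc22a12, Slc22a13 and Slc26a1 were listed at 0 in every table, and Slc7a12 was under the minimum. An exact 0 can be a failed estimate, and no level is read from it.

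Enzymes and other proteins of the proximal tubule were raised in 38 of 42 compared genes, with a median ratio of 5.92, but 17 were dominant. The list held 4.75% of the kidney sum, and 1.8% of the brain-named sum. Acy3, which deacetylates mercapturic acids, had 4335 ppm in kidney, 62.1 in heart, 19.7 in spleen, 94.3 in the brain-named and 17.5 in the liver-named table, and was dominant. Ggt1, the brush border enzyme that breaks down glutathione, had 3141 ppm in kidney and 90.3 at most elsewhere, in the spleen table. Ace, angiotensin-converting enzyme, had the lowest ratio of the list at 1.72, with 88.8 ppm in kidney and 74.2 in heart.

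Several metabolic genes of the proximal tubule were also high in the brain-named table. Of 15 genes of gluconeogenesis and ammonia production 6 were raised and 0 dominant, with a median of 0.53 against 0.47 for all compared genes. Fbp1, fructose bisphosphatase, had 1970.0 ppm in kidney and 1379 in the brain-named table, and Pck1, the cytosolic carboxykinase that starts gluconeogenesis, 653.1 and 915.1; in the heart, liver-named and spleen tables both were at 18.6 or less. Mdh1, cytosolic malate dehydrogenase, had 5784 ppm in kidney but 7519 in heart, with a ratio of 0.46. The aminotransferase Got1 had the lowest ratio of the list at -1.17, with 215.6 ppm in kidney and 1354 in heart. Creatine and arginine genes were raised in 4 of 13. Gatm, which makes the creatine precursor guanidinoacetate, had 1444 ppm in kidney and 170.4 at most elsewhere and was dominant. Gamt, which methylates it to creatine, had 10.1 ppm in kidney and 203.8 in the brain-named table, a ratio of -0.34. Ass1, argininosuccinate synthase, had 1001 and 791.2 ppm in the same tables and a ratio of 4.38, and Odc1, ornithine decarboxylase, had 628.8 in kidney and a ratio of 2.82.

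The thick ascending limb list had 14 of 18 compared genes raised and 11 dominant, with a median ratio of 5.91. Egf, the epidermal growth factor precursor made by this segment and the distal tubule, led with 2524 ppm in kidney and 15.8 in heart, 22.2 in spleen, 17.0 in the brain-named and 38.8 in the liver-named table. Slc12a1 (NKCC2), the sodium-potassium-chloride carrier blocked by loop diuretics, had 1752 ppm in kidney and 1.68, 4.78, 3.17 and 8.75 in the same order of tables. Cldn10, a claudin of the tight junction, had 1734 in kidney and 199.6 in the liver-named table, so its margin over the highest other table was 3.12. The lowest ratio was that of Enox1, 0.42, with 8.28 ppm in kidney and 53.5 in the liver-named table. Of 35 listed claudins 15 were compared, and 8 of these were raised and 4 dominant. Here too a gene can reach the minimum mean through kidney alone.

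Distal convoluted and connecting tubule genes were raised in 12 of 15 and dominant in 6, with a median of 4.66. Slc12a3 (NCC), the thiazide-sensitive salt carrier, had 1065 ppm in kidney and 1.53 in heart, 3.48 in spleen, 2.00 in the brain-named and 4.41 in the liver-named table. Calb1, calbindin, a calcium-binding protein of distal tubule and neurons, had 891.7 ppm in kidney and 502.2 in the liver-named table, with 4.56 or less in the other 3. Kl, klotho, the co-receptor for FGF23, had 863.8 in kidney, 35.4 in the liver-named table and 2.85 or less in the other 3. Slc8a1, the sodium-calcium exchanger, had the lowest ratio, 1.08, with 28.7 ppm in kidney and 36.5 in heart.

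Vitamin D and mineral genes, a list that overlaps with those above, had 8 of 13 raised and 7 dominant. Among its members not yet named, the vitamin D receptor Vdr had 288.8 ppm in kidney and 4.62 at most elsewhere, and Cyp24a1, the enzyme that inactivates vitamin D, 86.5 and 0.5. Cyp2r1, the hepatic 25-hydroxylase, had 0.17 ppm in kidney and 23.8 in the brain-named table, and the lowest ratio of the list, -0.13.

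In the collecting duct the principal cell list had 9 of 14 compared genes raised and 7 dominant, with a median ratio of 3.61. Aqp2, the water channel regulated by vasopressin, had 768.0 ppm in kidney and 1.63 in heart, 1.79 in spleen, 1.10 in the brain-named and 2.29 in the liver-named table. Tfcp2l1, a transcription factor of the collecting duct, had 225.4 ppm in kidney and 7.76 at most elsewhere, and Aqp3, the basolateral water channel, 202.8 and 9.07. Gata3 had the lowest ratio, 0.96, at 2.93 ppm in kidney and 3.02 in spleen. The intercalated cell list had 11 of 14 raised and 7 dominant, with a median of 4.53. Slc26a4, pendrin, the chloride-bicarbonate exchanger, had 567.2 ppm in kidney and 20.9 at most elsewhere. Atp6v1b1 with 156.8 and Atp6v0a4 with 84.9 ppm, the proton pump subunits of these cells, had at most 0.97 elsewhere. Slc4a1, the anion exchanger shared with red cells, had 66.9 ppm in kidney and 781.1 in spleen. Clnk was the lowest of the list at -0.48. The general subunits of the same pump were raised in 1 of 14, Atp6v1a, and Atp6v1b2 had 1383 ppm in kidney but 3272 in the liver-named table.

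The sodium pump was raised in 2 of 5 compared subunits. Atp1b1, a beta subunit, had 1998 ppm in kidney and 2247 in the liver-named table, a ratio of 4.01. None of the 5 was dominant, and Atp1b3 and Atp1b2 had ratios of -0.10 and -0.34.

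Podocyte, renin and endothelial lists held fewer raised genes. Of 14 compared podocyte genes 4 were raised and 1 dominant, with a median of 2.08. Col4a4, a collagen of the glomerular basement membrane, had 125.1 ppm in kidney and 32.0 in heart, and Npnt, nephronectin, 108.9 and 37.3 in spleen. Magi2 had 20.4 ppm in kidney, its lowest ratio of the list, -0.63, with 173.5 in the brain-named table. In bulk tissue fewer cells of a type and less RNA per cell cannot be told apart. Of the list around renin, Ren1, renin itself, had 87.0 ppm in kidney and 0.29 at most elsewhere, while Agt, angiotensinogen, had 92.0 in kidney and 822.3 in the brain-named table, and Agtr1a 8.0 in kidney and 9.59 in heart. The endothelial list had 4 of 12 raised and 0 dominant: Igfbp3 with 545.0 ppm in kidney and 87.5 at most elsewhere, Plvap with 346.4 and 85.2, Tek with 269.6 and 226.5, and Plat. Pecam1 had 4.24 ppm in kidney and 15.9 in spleen.

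**Figure D3:**
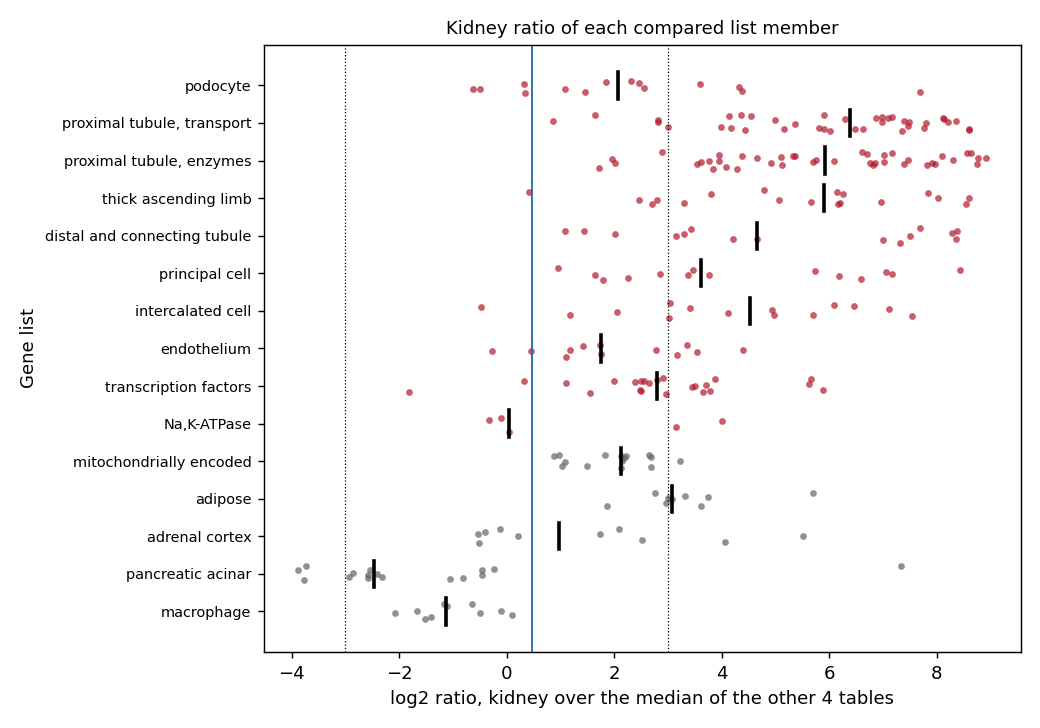
log2 ratio of kidney over the median of the other 4 tables for each compared member of 15 gene lists; points are genes, black bars list medians, dotted lines the 8-fold calls and the blue line the median of all compared genes, 0.47. The tubule lists have medians from 3.61 (principal cell) to 6.39 (proximal transport), the podocyte list 2.08 and the acinar list -2.47.

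Transcription factors of the kidney were raised in 9 of 23 compared genes and dominant in 2, Pax8 and Emx2, with a median of 2.79. Hnf4a, a nuclear receptor that regulates proximal tubule and hepatocyte genes, had 94.3 ppm in kidney and 78.9 in the brain-named table, with 1.92 or less in the remaining tables. Irx3 had 75.7 ppm in kidney and 53.6 in heart, and Bhlhe41 had the lowest ratio, -1.82. Of 39 listed genes of the Hox clusters, which specify position along the body axis, 9 were compared. Of these 9, 7 were raised and 6 dominant. A Hox gene can reach the minimum mean through kidney alone, so these counts partly follow from that minimum. Hoxa10 led with 301.3 ppm in kidney and a ratio of 7.77, followed by Hoxa7 with 72.9 and Hoxb7 with 63.3 ppm. Ribosomal protein genes (Rpl and Rps) were raised in 0 of 70 and zinc finger genes (Zfp) in 2 of 252 compared genes, Zfp641 and Zfp503, beside 4.65% of all compared genes. By RefSeq class, 5.11% of 14410 protein-coding, 3.96% of 984 long noncoding and 1.86% of 1455 pseudogene entries were raised.

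Among the 15 highest shares of the kidney table were many genes of energy metabolism that other organs also held. Atp5g3, a subunit of the ATP synthase ring, had 6378 ppm in kidney and 19281 in heart, and Atp5b, a catalytic subunit, 5348 and 7899. Ndufa4, a respiratory chain subunit, had 3613 and 6807 in the same tables, and Aldoa, the aldolase of glycolysis, 3459 and 17338. Prdx1, a peroxidase, had 3201 ppm in kidney and 7435 in the brain-named table, and Itm2b, a membrane protein, 3086 in kidney and 1100 to 1891 in the others. Transcripts of the mitochondrial genome never carry a cap, and they were raised in 1 of 15, mt-Nd2, with a median of 2.13, with a sum of 0.841% of the kidney and 1.08% of the heart table. mt-Co3 had 5218 ppm in kidney and 6809 in heart, mt-Atp8 603.7 and 727.3, and mt-Nd6 had the lowest ratio, 0.87. Gm28437, a gene model with 6685 ppm in kidney and 7873 in heart, had 519.5 ppm in spleen, 1452 in the brain-named and 2661 in the liver-named table, an order of the 5 tables that mt-Co3 shared.

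Over the compared genes Spearman's rho of the shares with kidney was 0.80 for the brain-named, 0.78 for the heart, 0.72 for the spleen and 0.70 for the liver-named table, a description across genes, which are not independent. Of the 826 raised genes the highest other value lay in the brain-named table for 340, in the liver-named for 284, in spleen for 124 and in heart for 78. Of the 574 that were raised but not dominant 301 had it in the brain-named table. In 88 raised genes the brain-named share was above that of kidney, among them Cyp4a14, a fatty acid hydroxylase, with 93.3 ppm in kidney and 931.1 in the brain-named table. Kidney had the highest of the 5 shares in 4360 compared genes, against 6864 for the liver-named table. In 1794 of the 4360 the margin exceeded 2 approximate errors, and in the others it did not.

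**Figure D4:**
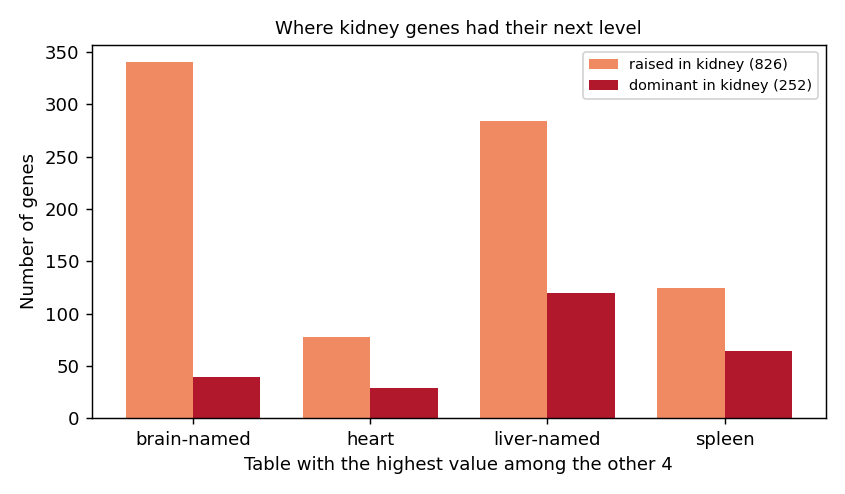
Number of genes by which of the other 4 tables held their highest share, for the 826 raised (orange) and 252 dominant (dark red) genes. The brain-named table leads among the raised genes with 340, and the liver-named table among the dominant genes with 120.

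Of the 44 lowered genes 9 had their lowest share of the 5 in kidney, and in the others at least 1 more table lay below kidney. A call needs a median of the other tables high enough to lie 8-fold over the addition of 0.5 ppm, which held in 10156 compared genes. Cd5l, a macrophage protein, had the lowest ratio, -5.47, with 1.97 ppm in kidney, 1.48 in heart, 215.7 in spleen, 281.6 in the brain-named and 2.34 in the liver-named table. Marco, a scavenger receptor of macrophages, had 0.50 in kidney, 24.1 in the brain-named and 58.5 in the spleen table. Eef1a2, the elongation factor of muscle and neurons, had 0.72 ppm in kidney, 57.2 in heart and 50.9 in the liver-named table. Lingo3 followed the same pair at a ratio of -4.24. Slc2a6, a sugar transporter, and Ypel4 were higher in the liver-named and spleen tables, with ratios of -4.14 and -3.89. Spon2 was high in the brain-named, heart and spleen tables, with a ratio of -3.72. Rnase1, Prss2 and Clps, products of the exocrine pancreas, had 5.2 to 6.29 ppm in kidney, 1030 to 1148 in spleen and 149.7 to 175.7 in the brain-named table.

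Markers of tissues around or within the kidney were counted in the same way. Of 9 compared adipose genes 5 were raised and 0 dominant, with a median of 3.07: Retn, resistin, had 562.2 ppm in kidney and 177.6 in heart, Cfd, adipsin, 91.6 and 20.8, Pck1 as above, and Cidec and Plin1 followed. The defining adipokine Adipoq had 2.28 ppm in kidney, the highest of the 5 tables, and 0.55 at most elsewhere, a ratio of 1.86. Of 10 compared adrenal cortex genes 2 were raised and dominant, Hsd3b1 with 26.6 ppm and Cyp11b1 with 8.46, while Fdx1 and Fdxr, shared by all steroid-making and other cells, had 58.5 and 53.1 and ratios of 1.74 and -0.12. Of the adrenal medulla list Slc18a1, a vesicular monoamine transporter, had 90.0 ppm in kidney and 1.8 at most elsewhere, a ratio of 6.22. The defining enzymes of that tissue, Th and Dbh, had 1.22 and 1.03 ppm in kidney, and Chga, chromogranin A, 11.0. The part of such tissue in these values was not tested. Of the acinar list Spink1, a trypsin inhibitor, was raised with 1327 ppm in kidney and 204.6 in spleen, while Pnlip had 213.3 in kidney and 55949 in spleen and Cela1 456.9 and 35788.

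Marker lists of the other organs held no raised gene. None of the 16 hepatocyte, 11 cardiomyocyte, 12 neuron, 8 B cell, 7 erythroid, 10 macrophage and 8 fibroblast genes compared was raised, and 1 was lowered, Ttr of hepatocytes, at -3.03. The list medians were 0.26, -0.04, 0.13, -0.25, -0.97, -1.13 and 0.88 in that order. With median-of-ratios scaling those of hepatocyte and neuron genes lay below 0, at -0.06 and -0.41. A marker high in 1 other table alone hardly lifts the median of the other 4, so the lowered call was hardly within its reach. Over the highest other table the list medians were -6.49, -7.67, -5.76, -6.56, -4.68, -2.49 and 0.08 in the same order of lists. Alb had 1151 ppm in kidney, 475.2 in heart, 1222 in the liver-named and 1191 in spleen, against 223022 in the brain-named table. Trf, transferrin, had 807.6 in kidney and Hba-a1, an alpha globin, 1453, against 41732 in spleen. Csf1r and Lyz2 of macrophages had 88.5 and 24.8 in kidney and 806.1 and 605.3 in spleen. Dcn, decorin of fibroblasts, had 434.9 in kidney and 1752 in heart.

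A remainder of transcripts dominant in kidney was present in every other table, and of those dominant elsewhere in kidney. Of the 252 dominant genes 104 had at least 100 ppm in kidney. In these, the lowest share in another table was 0.0649% of the kidney share in heart, 0.132% in the brain-named, 0.201% in spleen and 0.209% in the liver-named table, and 28 of the 104 lay under 0.5% in all 4. In the reverse direction the lowest values were higher. Of genes dominant in the heart table with at least 100 ppm there, the lowest stood in kidney at 0.288% of its heart share, and for the spleen, liver-named and brain-named tables the lowest stood at 0.297%, 0.308% and 0.324%. The medians of these reverse shares ran from 0.776% to 1.87%, against 0.411% to 0.832% for the 104 kidney genes in the other tables. Myl3, a ventricular myosin light chain, had 119.5 ppm in kidney and 37026 in heart, and Ighm, an immunoglobulin heavy chain, 68.2 and 11666 in spleen. No kidney ratio exceeded 8.92. The cause of this remainder was not tested.

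The genotype difference within kidney was read from the authors' deposited table, which compares 3 Ftsj1_DF with 3 WT libraries. A positive value is taken as higher in Ftsj1_DF because Ftsj1 itself had a negative value in the authors' deposited table of every organ, in kidney a log2 fold change of -1.56 ± 0.61 (SE; deposited DESeq2 adjusted p = 0.202). Of the compared genes with an adjusted p, 326 of 16490 or 1.98% passed a false discovery rate of 5% in the authors' deposited table. Of 823 raised genes with an adjusted p 7 passed, 0.851%, and of 250 dominant genes 0 passed, with 14 or 5.6% at an unadjusted p under 0.05, beside 7.53% of raised and 10.5% of all compared genes. The count of raised genes that passed depends on the addition: with 0.1 ppm added, 21 of 1060 raised genes passed in the authors' deposited table, and with 2 ppm 2. The standard errors in the authors' deposited table had a median of 0.40 in raised and 0.59 in compared genes.

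The genes that passed were few and of different kinds. In the authors' deposited table Scnn1a, the alpha subunit of the epithelial sodium channel of principal cells, was higher in Ftsj1_DF by 1.90 ± 0.43 (log2, SE; deposited DESeq2 adjusted p = 0.0016). Cpn1, a carboxypeptidase, was higher by 0.77 ± 0.18 and Cyp4a14 by 3.15 ± 0.89 in the authors' deposited table. Lower in Ftsj1_DF in the authors' deposited table were Klk1b21, a kallikrein of a family of near-identical copies, by -2.03 ± 0.54, Mab21l4 by -4.67 ± 0.84, and the gene models Gm7394 by -2.87 ± 0.81 and Gm47599 by -6.20 ± 1.39. These 7 had kidney shares of 5.18 to 93.3 ppm. Scnn1g, the other compared subunit of that channel, had -0.75 ± 0.46 in the authors' deposited table and did not pass. Umod, at 0.50 ± 0.28 in the authors' deposited table, did not pass, and neither did Aqp2 at 0.47 ± 0.23, Slc12a1 at 0.33 ± 0.26 or Lrp2 at 0.34 ± 0.25.

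Markers of the adrenal cortex had mostly negative genotype values. Of the 10 compared genes 9 were negative in the authors' deposited table, with a median of -2.44 against -0.0071 for all compared genes, and Star, which carries cholesterol into mitochondria, passed at -4.65 ± 1.03 (deposited DESeq2 adjusted p = 0.0013). Only 6 of the 10 have an adjusted p in the authors' deposited table. Without a value per library, whether 1 library carries these differences was not tested. Negative signs also prevailed there in 14 of 15 mitochondrially encoded (median -0.60), 14 of 16 hepatocyte (-0.37) and 10 of 11 cardiomyocyte genes (-0.56). In the podocyte and the general proton pump lists 2 of 14 were negative each. Hsd3b1 had -2.76 ± 1.17 and Cyp11b1 -9.14 ± 3.41 in the authors' deposited table. The former did not pass and the latter has no adjusted p there. Of the adrenal medulla list all 6 compared genes were negative in the authors' deposited table, with a median of -2.13. Among them Chga had -3.57 ± 1.17 (deposited DESeq2 adjusted p = 0.083), Dbh -4.23 ± 1.53, Th -0.40 ± 1.01 and the raised Slc18a1 -0.19 ± 0.43 in the authors' deposited table. Only 3 of the 6 have an adjusted p there, and Dbh has none. The summed share of the adrenal cortex list was 187.0 ppm in kidney, 66.0 in heart, 104.8 in spleen, 254.6 in the brain-named and 151.3 in the liver-named table. The adrenal medulla list summed to 106.2 ppm in kidney, of which Slc18a1 held 90.0. Its sum was 16.9 in heart, 4.94 in spleen, 4.06 in the brain-named and 661.4 in the liver-named table. The part of adrenal tissue in the genotype values was not tested.

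**Figure D5:**
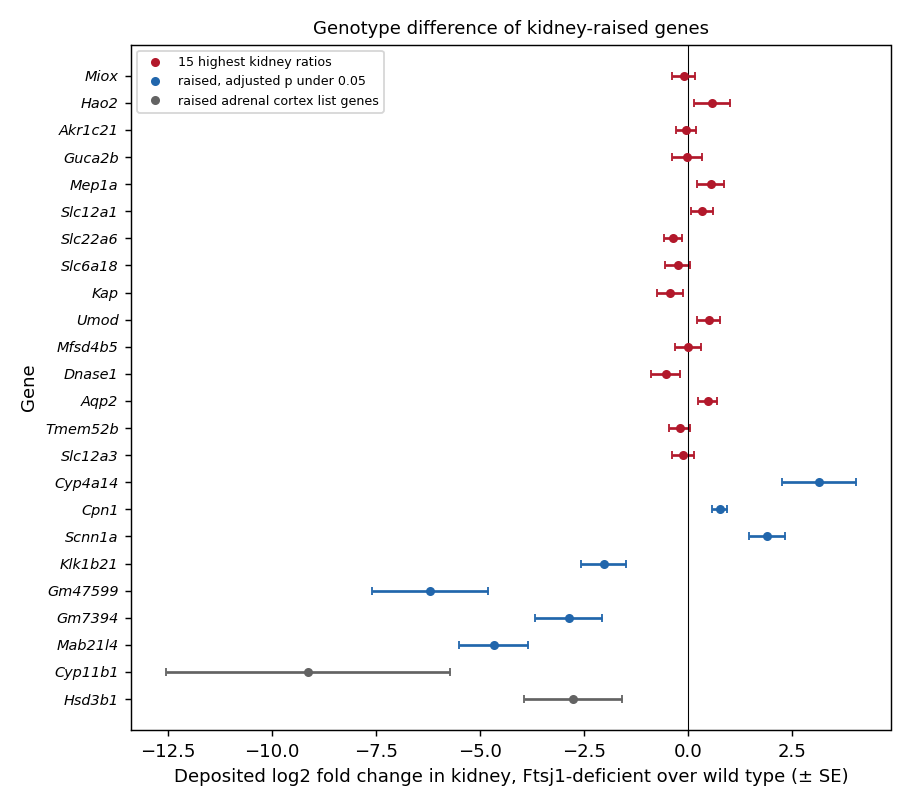
Log2 fold change of Ftsj1_DF over WT kidney with its standard error, as in the authors' deposited table, for the 15 genes with the highest kidney ratios (red), the 7 raised genes past the 5% threshold (blue) and the raised adrenal cortex genes (grey). The red values lie between -0.54 (Dnase1) and 0.58 (Hao2), and Cyp11b1 at -9.14 has the widest error.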

How the data were processed

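Degradome libraries of 5 organs were counted by the authors against GRCm39 with featureCounts and Subread 2.0.3 and compared with DESeq2, per the submitters' processing notes; the aligner and the DESeq2 model are not given in the sources used here. The values used are each gene's deposited signal, its normalized count averaged over every library of an organ. Genotype fold changes with their standard errors were deposited on the log2 scale. Each p-value, raw or adjusted, was taken as deposited. Each file has 1 row with no gene name, which was left out. Depth per library is unknown, and the kidney means summed to 48536401 normalized counts.

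Shares, ratios (log2, 0.5 ppm added) and lists were computed in Python 3.11 with pandas. The ratio was tried on simulated organs that shared 1 profile apart from planted differences. There the median ratio was subtracted before the call, which was not done for the calls above, so the trial does not test those calls. The members and the gene lists were chosen with earlier results of these data known. The genes named were Umod, the 15 highest shares and ratios and 10 lowest ratios, per list the 3 highest shares and the lowest ratio, and raised genes past the genotype threshold, up to 6 per direction; some of the rule's genes are counted but not reported here. Slc34a1, Slc5a2, Slc4a1, Vdr, Cyp24a1, Plat, Atp6v1a, Pax8, Emx2, Hoxa10, Hoxa7, Hoxb7, Zfp641, Zfp503, Cidec, Plin1, Cyp11b1, Star, Scnn1g, Homer2, Marveld3, Dcxr, Dusp5, Slc2a2 and Sprr2a3 were named after their values were seen. Classes and promoters came from RefSeq (GRCm38.p6), with 95.7% of compared genes matched by symbol. The promoter word searched was chosen after the data were seen, and the search for another word is not reported here. The coordinates of the printed promoters are of that build and not of the authors' GRCm39. Members of families with near-identical copies (Klk1b, Ugt2b, Cyp4a, Mfsd4b, Hba-a) are uncertain where counting could split reads among them.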

Additional observations from a re-analysis of the deposited data

How the results depend on the processing

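No paired analysis was possible because the tables hold 1 pooled value per gene and organ and no value per library; leaving out a library, or a fit with sets of brothers, was not possible for the same reason. Scaling by the median of ratios moved the median log2 ratio of all compared genes from 0.47 to -0.10, leaving the 20 highest genes of each table out of the sums moved it to 0.13, using the mean of the other 4 tables to 0.08 and leaving out the liver-named table to 0.79. The count of 826 raised genes stayed within 1.5 times under 11 of 14 alternatives; it was 483 with the mean of the other 4 and 1839 and 425 at thresholds of 4-fold and 16-fold. The 252 dominant genes became 496 without the brain-named table and 551 and 128 at these thresholds. The 44 lowered genes were less steady: 118 and 22 with 0.1 and 2 ppm added, 105 with median-of-ratios scaling, 83 without the 20 highest genes in the sums, 896 with the mean, 83 without the brain-named table, 80 without the heart table, and 207 and 4 at 4-fold and 16-fold. The 7 raised genes that passed for genotype became 4 at a mean of at least 500, 21 and 2 with 0.1 and 2 ppm added, 2 with the mean, 11 without the heart and 13 without the liver-named table, 3 at 16-fold, and 4 at a false discovery rate of 1%.

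No list median changed sign in the tubule, podocyte and transcription factor lists. With 2 ppm added the medians were 5.26 for proximal transport, 5.27 for proximal enzymes, 4.39 for the thick limb, 3.92 for distal tubule, 2.59 for principal and 3.45 for intercalated cells; with 0.1, 6.97 for proximal transport and 5.36 for intercalated cells. With the mean of the other 4 they were 4.98, 3.61, 4.84 and 3.49 for proximal transport, proximal enzymes, thick limb and distal tubule and 3.76 for intercalated cells. With median-of-ratios scaling they were 1.495 for podocytes, 5.78 and 5.45 for proximal transport and enzymes and 4.01 for distal tubule, and without the 20 highest genes 4.28 for distal tubule. A mean of at least 20 gave 3.77 for intercalated cells, and at least 500 gave 6.35, 5.96 and 5.70 for proximal enzymes, principal and intercalated cells. Proximal enzymes were at 6.67 without the brain-named and 6.61 without the heart table.

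Changes of sign were counted only for named genes with a log2 ratio of at least 3 or at most -3. Smaller ratios, which lie nearer to equality, were left out of this count. Among the genes counted, the ratio changed sign for Cyp4a14 with the mean (-1.33). It did so for Rnase1 (0.14) and Clps (0.52) without the brain-named or the spleen table. Eef1a2 (0.24) and Lingo3 (0.21) changed sign without the heart or the liver-named table, and Ttr (1.52) without the brain-named or the liver-named table. Median-of-ratios scaling gives no share of a table, so list shares were recomputed under the other sums alone. Counts behind single libraries are unknown, which limits how firmly low shares can be read.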
